A study of Mus musculus with 8 samples.

Results

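The genes described here encode the machinery that starts transcription by RNA polymerase II (Pol II): subunits of the Mediator complex, TBP-associated factors (TAFs), subunits of Pol II and the general transcription factors named Gtf2. Members were chosen by symbol alone, as every protein-coding gene of GENCODE release M21 on mouse chromosomes 1 to 19 whose name begins with Med or Taf and a digit, with Polr2 and a letter from a to m, or with Gtf2. This gave 77 of 20722 genes, which were sorted by structure into 17 groups. Some carry the name without belonging to these complexes. Taf1a, Taf1b, Taf1c and Taf1d serve the Pol I factor SL1, Taf5l and Taf6l belong to the coactivator SAGA, Taf15 is an RNA-binding protein of the FET family, Polr2m associates with Pol II, and Gtf2i, Gtf2ird1 and Gtf2ird2 form the TFII-I family of DNA-binding proteins.

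H3K36me3 was measured by ChIP–seq in i4F MEFs, embryonic fibroblasts with a doxycycline-inducible cassette of Oct4, Sox2, Klf4 and cMyc (OSKM), taken from 1 embryo at E13.5 that the labels call Clone 1. All cells spent 72 h in medium for induced pluripotent stem cells. The 4 conditions were no addition (MEF), 2 µM vitamin B12 (MEF B12), doxycycline (OSKM), and doxycycline with 2 µM vitamin B12 (OSKM B12), with doxycycline at 1 µg/ml in the labels and 1 mg/ml in the methods of the study. With a single H3K36me3 library (1) and a single input (1) for each condition, no difference below has a replicate check, no p-value is given, and "higher" and "lower" compare single libraries. Cells that had not responded to doxycycline could not be told apart from the others in these bulk samples.

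Mediator is a large complex that carries signals from enhancer-bound factors to Pol II. Its head and middle modules touch the polymerase, its tail meets activators, and its kinase module binds reversibly. TFIID, made of TBP and the TAFs, recognizes the promoter, and TFIIA, TFIIB, TFIIE, TFIIF and TFIIH then join Pol II to open the DNA and start transcription. Once Pol II elongates, the methyltransferase SETD2 rides on the phosphorylated tail of its largest subunit and trimethylates H3K36 behind it, so that this mark lies along the bodies of transcribed genes and grows toward their ends. The Pol II subunit genes below therefore encode the enzyme that the mark travels with, and the bodies of most members carried the mark.

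That tail is coded by Polr2a and consists of repeats of 7 amino acids, whose consensus order is tyrosine, serine, proline, threonine, serine, proline and serine. A search for the codons of exactly this order found 21 repeats of 21 bases each in the last of the 29 exons of Polr2a. It found 0 elsewhere in the gene body. Repeats that depart from this order were not searched for, so 21 is not the full number of repeats in the tail. The exact repeats lay between positions 69734914 and 69735480 of chromosome 11 (GRCm38, reverse strand), 23157 bases past the start of the gene. The stretch was inside an H3K36me3 peak over 100% of its length in each of the 4 libraries. The longest unbroken run held 15 repeats, and 14 of them are shown 5′ to 3′ from the RefSeq genome, with the tyrosine codon that opens each repeat in capitals, since these are marked bases that code the part of Pol II to which SETD2 binds.
Polr2a repeats, chr11:69735124-69735417, reverse strand: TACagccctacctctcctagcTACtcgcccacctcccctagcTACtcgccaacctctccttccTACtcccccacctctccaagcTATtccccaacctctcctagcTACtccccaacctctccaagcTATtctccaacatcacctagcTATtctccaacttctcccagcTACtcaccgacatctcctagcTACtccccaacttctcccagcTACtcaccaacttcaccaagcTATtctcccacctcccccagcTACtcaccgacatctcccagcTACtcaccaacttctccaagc

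Promoters were nearly free of the mark. RefSeq promoter windows (GRCm38.p6, 250 bases before to 50 after a start) matched 66 of the 77 members by symbol. The RefSeq start lay within 50 bases of the GENCODE start for 52 members and at most 491 bases away. A peak reached into 1 window, that of Polr2b, which codes the second-largest Pol II subunit. For Polr2b the RefSeq start lay 337 bases downstream of the GENCODE start, so the whole window falls inside the GENCODE gene body. The peak came from the OSKM library alone and covered 183 bases of the window. These bases are in capitals below.
Polr2b promoter, chr5:77310234-77310533, forward strand: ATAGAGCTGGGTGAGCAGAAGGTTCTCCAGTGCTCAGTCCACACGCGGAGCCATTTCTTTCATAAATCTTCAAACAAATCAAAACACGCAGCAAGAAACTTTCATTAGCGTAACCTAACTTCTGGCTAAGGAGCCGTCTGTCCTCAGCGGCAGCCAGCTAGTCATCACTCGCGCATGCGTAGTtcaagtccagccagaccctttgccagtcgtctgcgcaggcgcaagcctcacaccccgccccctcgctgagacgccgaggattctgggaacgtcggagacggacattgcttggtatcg

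The promoter windows of members were also read for short motifs, searched on both strands and without regard to overlap between motifs. The ETS-like letters CCGGAAG occurred in 21 of the 66 windows (31.8%) and in 12.1% of the 19167 windows of genes on chromosomes 1 to 19. Each member was given only the window nearest to its GENCODE start, whereas all windows of a gene count among the 19167. The shares below therefore compare unlike sets of windows. The SP1-like letters GGGCGG occurred in 66.7% of member windows and 48.3% of all windows. TATAAA was found in 12.1% of both, and CCAAT in 34.8% of member windows and 37.5% of all. The NRF1 motif occurred in 0 member windows and 1.39% of all, and the YY1 motif in 3.03% and 0.934%. Members' windows held a median of 24 CG dinucleotides, and all windows 14. These are counts of letters, and binding of any factor was not measured.

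For each gene the body was the protein-coding transcript with the longest span. The covered share is the percentage of the body that lies in a broad peak. The density is the authors' mean pileup (H3K36me3 fragments over a base) per 1000000 tags, summed over the bases in peaks and divided by the length of the body, so that bases outside peaks count as 0. A gene is called marked where at least 10% of its body was covered in at least 1 library. The libraries held between 29046913 and 33399267 H3K36me3 tags, OSKM the most, and peaks covered 92.8 Mb in OSKM and between 154 and 166 Mb in the other libraries. The cells carried the mark on the bodies of 7 of 8 fibroblast markers in each library (Col1a1 over at least 93.9%), while the body of Twist1 had no peak. Among other cell types, no peak was listed on Pou5f1, Nanog, Epcam, Cdh1, Ptprc or Pecam1 in any library, and Zfp42 was covered over 2.42% in OSKM alone. In the order MEF, MEF B12, OSKM, OSKM B12, the blood marker Spi1 was covered over 3.26%, 4.92%, 0% and 4.70% and the neural marker Tubb3 over 25.1%, 31.7%, 0% and 25.6%.

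Of the 77 members, 71 were marked (92.2%), compared with 46.4% of all genes. The 6 that were not were Gtf2a1l, Gtf2f2, Med12l, Polr2i, Taf3 and Taf4b. By library, 65 members were covered over at least 10% in MEF (43.3% of all genes), 70 in MEF B12 (44.7%), 61 in OSKM (36.3%) and, with vitamin B12 added to OSKM, 68 (44.9%). Gtf2a1l alone had no peak in any library, a state shared by 43.1% of all genes. The share of bodies with the mark was thus higher for this machinery than for the genome as a whole in these fibroblasts. No peak was listed in MEF for 5 members (47.4% of all genes), in MEF B12 for 2 (46.6%), in OSKM for 8 (50.3%) and, again, for 2 in OSKM B12 (46.1%). The 8 in OSKM were Gtf2a1l, Med30, Polr2i, Polr2k, Taf13, Taf4b, Taf7 and Taf9.

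Among marked genes the members stood a little above the middle. The median covered share in MEF was 54.4% over the 71 marked members and 48.2% over the 9619 marked genes. In OSKM the same medians were 38.5% and 28.9%, in MEF B12 they were 58.7% and 52.1%, and in OSKM B12 57.5% and 52.6%. At least 50% of the body was covered for 42 of 71 members in MEF (47.9% of marked genes), 48 in MEF B12 (52.4%), but 25 in OSKM (25.7%) against 50 in OSKM B12 (52.9%). By density, the median member stood at percentile 58.2 of marked genes in MEF and 60.2 in OSKM B12, so its rank hardly moved between libraries. Members ranged from broad domains over nearly the whole body to small patches, and the plot of covered shares gives each of them.

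**Figure D1:**
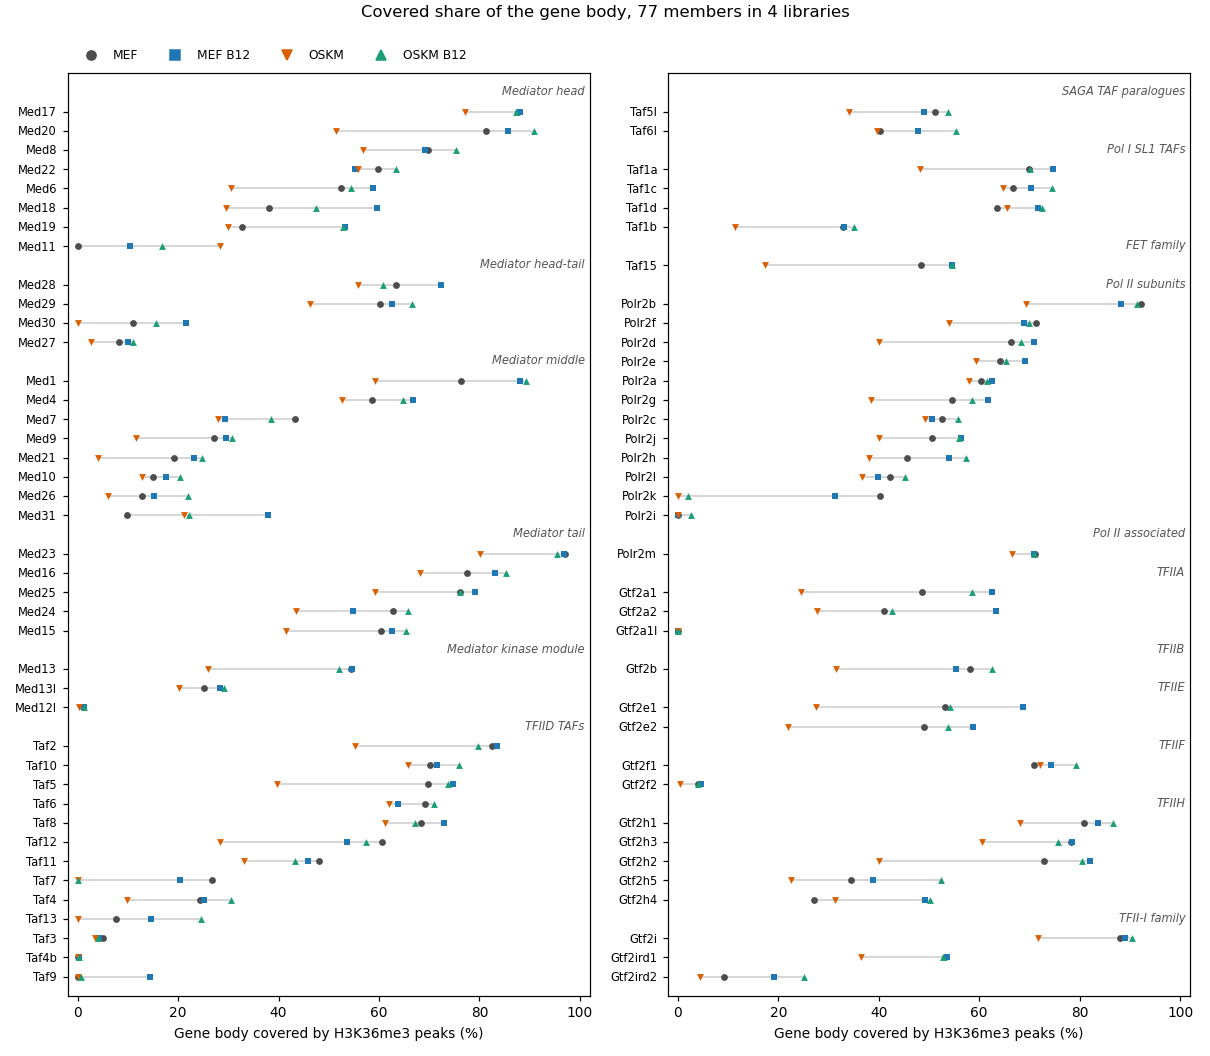
Covered share of the gene body (%, x axis) for each of the 77 members in the 4 libraries, 1 point per library, sorted within structural groups by the MEF value. OSKM is the leftmost point for most members, while Gtf2f1, Gtf2h4, Med11, Med31 and Taf1d have MEF as their leftmost point and Gtf2a1l has 0% in each library.

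Mediator genes differed by module. The 5 tail genes, whose products meet activators, had the broadest coverage, with a median of 76.1% in MEF, and the 8 middle genes had 23.2%. The head genes lay between them at 56.1%. Med23, a tail subunit, was the most covered of all members in MEF, with 97.0% of its 43696 bases in peaks there and 96.9% in MEF B12, compared with 80.1% in OSKM and 95.5% in OSKM B12. Med23 was thus lowest in OSKM, and the other libraries lay within a few percent of each other.

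Within the middle module, Med1, the subunit that contacts nuclear receptors, was the most covered. It was covered over 76.3% in MEF and 88.1% in MEF B12, and 59.2% in OSKM and 89.2% in OSKM B12. Med26, which links Mediator to elongation factors, reached 12.9%, 15.2%, 5.96% and 21.9% in the same order, and Med10 15.0%, 17.6%, 12.9% and 20.4%. OSKM was the lowest library for each of these 3 genes. Apart from Med1, only Med4 of the middle genes was covered over more than 50% in MEF, at 58.6%. Med17, which forms the scaffold of the head, had the highest density of the head genes, at 0.719 in MEF and 0.849 in MEF B12, and 0.456 in OSKM and 0.818 in OSKM B12 per 1000000 tags.

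The kinase module is represented by Med13 and its paralogue Med13l, which tether the kinase to core Mediator, and by Med12l. Med13 was covered over 54.4%, 54.6%, 25.9% and 52.0% of its 90570 bases, in the order MEF, MEF B12, OSKM, OSKM B12. The values for Med13l, 204720 bases long, were 25.1%, 28.4%, 20.2% and 29.1%. Both were lowest in OSKM, and the density of Med13 there was 0.377 times that in MEF compared with 0.584 times for Med13l. Med12l was almost bare, at 1.32% or less in each library, and 36.1% of its body lies within other genes.

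The 11 marked TFIID genes had a median covered share of 60.7% in MEF and 53.6% in MEF B12, and 33.2% in OSKM and 57.5% in OSKM B12. Taf2, a large subunit that touches the core promoter, was covered over 82.6%, 83.5%, 55.3% and 79.7% in that order. Taf8, a histone-fold partner, had the highest TAF density in MEF, with 0.561 per 1000000 tags there, 0.646 in MEF B12, and 0.350 in OSKM compared with 0.701 in OSKM B12. For both genes OSKM was the lowest library, and the other three differed far less among themselves. Taf4, a scaffold of TFIID, was marked over a smaller part of its body, with 24.4%, 25.1%, 9.79% and 30.5%.

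In 2 of the paralogue pairs 1 gene was marked and the other was not. Gtf2a1, a subunit of TFIIA, was covered over 48.7% of its body in MEF, while the body of Gtf2a1l, its relative known from germ cells, had no peak. Taf4 was marked and Taf4b, also known from the germ line, was covered over at most 0.359%. Gtf2ird1 and Gtf2ird2 were both marked but at different levels. Gtf2ird1 was covered over 53.1%, 53.6%, 36.5% and 52.8% in the order MEF, MEF B12, OSKM, OSKM B12, and Gtf2ird2 over 9.27%, 19.1%, 4.42% and 25.1%. How reads shared by these related genes were placed was not examined. Both genes of the pairs Taf5 and Taf5l (69.7% and 51.2% in MEF) and Taf6 and Taf6l (69.2% and 40.3%) were covered in each library. The whole body of Taf5l lies within another annotated protein-coding gene, so its values cannot be assigned to it alone.

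Taf9 was a case of a core subunit with hardly any peak. Its body had no peak in MEF or OSKM, was covered over 14.5% in MEF B12 and over 0.584% in OSKM B12, and lies wholly within the annotated gene Ak6. Its X-linked paralogue Taf9b, not a member because of its chromosome, was covered over 22.1% in MEF and 19.1% in MEF B12, and 0% in OSKM and 31.4% in OSKM B12. A body with no peak means no enrichment detectable at this depth: the smallest mean pileup listed for any peak was 8 fragments in MEF and 9 in OSKM.

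Among the 12 Pol II subunits, the large Polr2b and Polr2a had the highest densities in MEF. Polr2b showed 92.1% of its 39178 bases in peaks in MEF and 88.3% in MEF B12, with 69.3% in OSKM and 91.3% in OSKM B12. Polr2a (chromosome 11, 69733997 to 69758637) showed 60.3%, 62.6%, 58.0% and 61.5%, and its density was 0.602, 0.761, 0.383 and 0.772. The covered share of Polr2a thus scarcely differed while its density was lowest in OSKM. In each library 1 long peak began between 10146 and 10396 bases past its start and ran through the end of the gene, with a mean pileup of 33.1 fragments in MEF and 36.9 in MEF B12, and 22.1 in OSKM and 38.9 in OSKM B12.

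The small subunits varied more. Polr2i, 1443 bases long, had no peak in MEF, MEF B12 or OSKM and 2.56% in OSKM B12. Polr2k, a zinc-binding subunit that Pol I and Pol III also use, was covered over 40.3% in MEF and 31.2% in MEF B12, and 0% in OSKM and 1.93% in OSKM B12. The peak behind the last value began 2940 bases past the start of this gene of 2998 bases and ran 1434 bases past its end. Polr2k was therefore a member whose body lacked a sizeable peak in both libraries with doxycycline, with or without vitamin B12.

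The general factors were covered over a median of 53.2% in MEF and 63.3% in MEF B12, and 31.2% in OSKM and 58.5% in OSKM B12 (11 marked genes). Gtf2h1, a core subunit of the repair and helicase factor TFIIH, was covered over 80.8%, 83.6%, 68.2% and 86.7%. Gtf2b, the single subunit of TFIIB that links TBP to Pol II, was covered over 58.2%, 55.4%, 31.6% and 62.6%. Both were lowest in OSKM. In TFIIF the pair differed, with Gtf2f1 at 70.9%, 74.3%, 72.1% and 79.2% and Gtf2f2 at no more than 4.70% in any library. Gtf2i, a 35-exon gene, stood among the most covered, at 88.0%, 89.0%, 71.6% and 90.5%.

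The first comparison asked how the mark on these bodies differed after 72 h of OSKM induction. In OSKM the density was lower than in MEF for 68 of the 71 marked members (96.8% of marked genes) and at least 1.5-fold lower for 43 of them (66.8% of marked genes). Med11 and Med31 were higher (1.98%), Med11 by at least 1.5-fold (0.541%), and Taf9 had no peak in either. The covered share was lower for 65 members (93.4%) and higher for 5 (5.09%), which were Gtf2f1, Gtf2h4, Med11, Med31 and Taf1d. The median log2 change, with 0.05 added to both densities, was −0.64 over members and −0.70 over all marked genes, and the mean covered share was 0.745 and 0.684 times that in MEF. Members were thus lower in OSKM together with marked genes in general. Whether they stood above or below the background depended on the settings, among them the peak threshold. Their share past 1.5-fold was 60.6% against the 66.8% above, but among peaks whose −log10 q reached 5 or more the members past the fold were 49 of 71 against 59.1% of the same marked genes, with medians of −1.68 and −1.01. A gene without such a peak in MEF could not be called lower, so this share also reflects which genes had one. Such peaks covered at least 10% of the body of 50 members in MEF.

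The same count was taken with other filters. Over all 77 members, 43 were at least 1.5-fold lower (31.4% of all genes), with a median of −0.61. Among the 59 members covered over at least 10% in each of the 4 libraries the count was 37 (67.5% of such genes), with a median of −0.64 against −0.69 for the 7433 genes so covered. Moreover, 6 members were covered over at least 10% in MEF and less in OSKM, namely Med21, Med26, Med30, Polr2k, Taf4 and Taf7 (15.8% of marked genes).

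**Figure D2:**
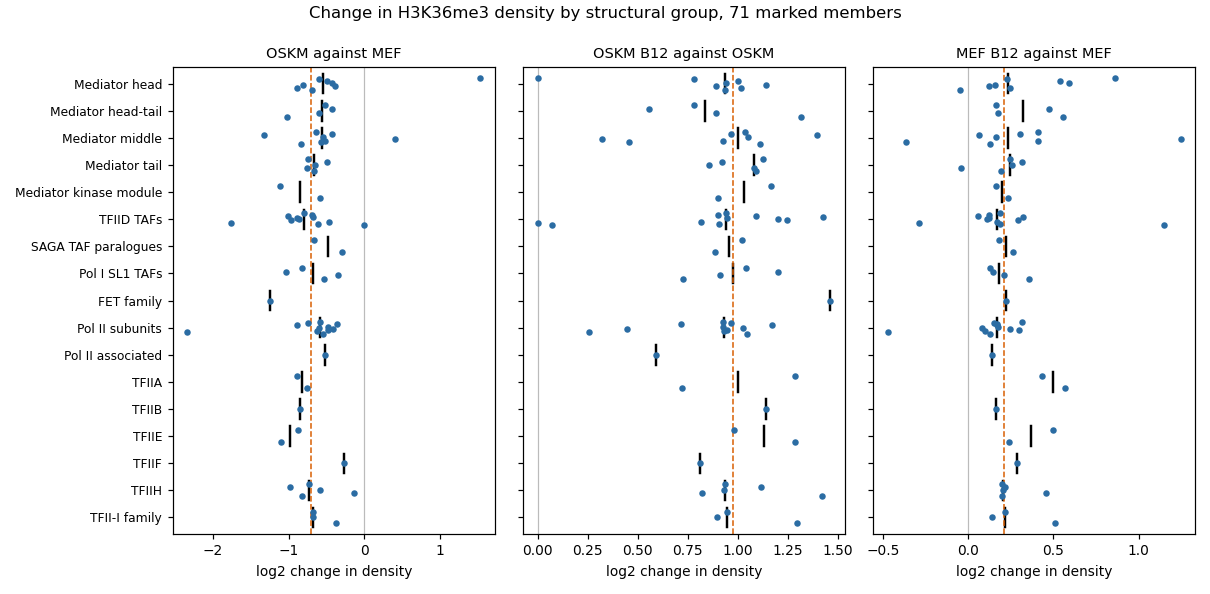
Change in H3K36me3 density (log2, x axis) of the 71 marked members, by structural group, for OSKM against MEF, OSKM B12 against OSKM and MEF B12 against MEF. Points are genes, black bars the median of a group, and the dashed line the median of all 9619 marked genes (−0.70, 0.98 and 0.21), and group medians lie on both sides of it.

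By group, the median log2 change from MEF to OSKM was −0.54 for the Mediator head, −0.56 for the middle, −0.67 for the tail, −0.80 for TFIID and −0.59 for the Pol II subunits. At least 1.5-fold lower were 4 of 8 head genes, 3 of 8 middle genes, 4 of 5 tail genes, 9 of 11 TFIID genes, 6 of 11 Pol II genes and 8 of 11 general factors, beside 66.8% of all marked genes. The general factors had a median of −0.82 and the 2 TFIIE genes −0.98. With 1 library per condition the groups could not be tested against each other, and their genes overlapped widely.

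Taf15 was among the 3 members with the most negative change, of those covered over at least 25% in MEF or OSKM. Its density was 0.263 in MEF and 0.314 in MEF B12, and 0.0817 in OSKM and 0.313 in OSKM B12, a log2 change of −1.25 from MEF to OSKM. In OSKM its body kept 5 peaks with 17.3% of the bases, against 48.5% in MEF, and 34.0% of the bases called in MEF were called again. The others were Polr2k, at −2.33, and Taf7, a TAF that contacts the largest subunit TAF1, at −1.76. Taf7 was covered over 26.8% in MEF, 20.4% in MEF B12 and 0% in both libraries with doxycycline, and it lies wholly within other annotated genes. Both of these log2 values are set against a library without a peak and depend on the 0.05 that was added.

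At the other end, Gtf2h4 and Gtf2f1 had, after Med11, the values nearest to or above MEF among members with that coverage. Gtf2h4, a TFIIH subunit, had densities of 0.166 in MEF and 0.247 in MEF B12, and 0.147 in OSKM and 0.297 in OSKM B12, so OSKM and MEF lay close (log2 −0.14). Gtf2f1 had 0.543, 0.674, 0.442 and 0.813 (log2 −0.27), and its covered share in OSKM was slightly above that in MEF. Med11, a small head subunit 1809 bases long, had no peak in MEF, 10.5% coverage in MEF B12, and 28.2% in OSKM compared with 16.8% in OSKM B12. Its value in OSKM came from 1 peak with a mean pileup of 11.1 fragments that reached 219 bases past the end of the gene. Med31, a middle subunit, had densities of 0.0696, 0.234, 0.108 and 0.147 in the same order, with MEF the lowest.

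The lower densities went with fewer covered bases and also with lower mean pileup of the peaks over bases that were covered throughout. Pileup was listed as a mean for each whole peak. Each such base therefore carries the mean of its peak, which also spans bases outside the shared stretch. Over bases in peaks in all 4 libraries, which came to at least 300 bases for 64 marked members, the median ratio of scaled pileup in OSKM to MEF was 0.773, against 0.781 for all marked genes with such bases. It was below 1 for all 64, from 0.584 for Taf10 to 0.950 for Med7. Of the body of Taf10, 71.1% lies within the annotated gene Ilk, so its value cannot be assigned to it alone. For Polr2a the ratio was 0.650 (95% interval for counting error 0.602 to 0.702), and for Med7, with 828 such bases, 0.950 (0.619 to 1.46). The interval of Med7 includes 1, but fragments on these bases alone were not counted. Intervals here cover counting error only and rest on fragment numbers estimated from the mean pileup of whole peaks.

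In OSKM some long members had their domain broken into more peaks, while other long members had fewer peaks than in MEF. Med23 was 1 peak in MEF and in MEF B12 but 9 in OSKM, with 3 in OSKM B12, and Polr2b had 2, 5, 16 and 2 peaks. Med1 had 7, 4, 15 and 4. The count was highest in OSKM for all 3 genes, and together the marked members held 292 peaks in MEF, 276 in MEF B12, and 361 in OSKM compared with 302 in OSKM B12. All marked genes held 58058, 57120, 60167 and 58895 in the same order. More peaks in OSKM than in MEF were listed for 39 of 71 members (43.2% of marked genes), and fewer in OSKM B12 than in OSKM for 36 (43.3%). Polr2a ran against this, with 1 peak in OSKM and 2 in MEF. So did long members such as Med13 (19 in OSKM and 22 in MEF), Med27 (7 and 13), Taf1b (8 and 13) and Taf4 (8 and 11).

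**Figure D3:**
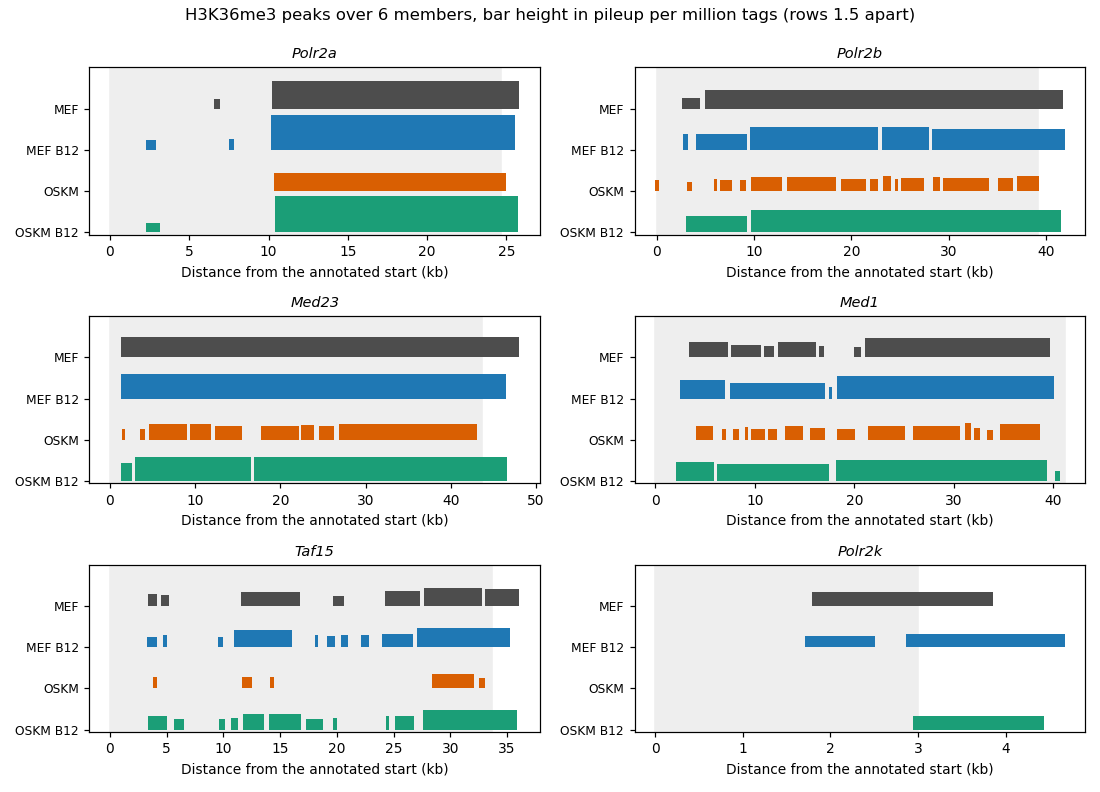
H3K36me3 peaks of 6 members by distance from the annotated start (kb), 1 row per library, with bar height the mean pileup per 1000000 tags on a common scale (rows 1.5 apart) and the gene body in grey. Polr2b, Med23 and Med1 have more and lower peaks in OSKM, Polr2a keeps 1 lower domain, Taf15 keeps 5 peaks and Polr2k has no peak in OSKM.

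The lower density in OSKM was related to the length of members. Spearman's rho between body length and the log2 change from MEF to OSKM was −0.38 over the 71 marked members and −0.16 over the 9619 marked genes, given as descriptions across genes, which share the same pair of libraries and are not replicates. Among marked genes shorter than 12772 bases the median log2 change was −0.52 over 34 members and −0.63 over all genes. Between 12772 and 33107 bases it was −0.78 over 20 members and −0.69 over all genes, and above 33107 bases −0.74 over 17 members and −0.76 over all genes. At least 1.5-fold lower were 13 of the 34 short members (54.6% of marked genes of that length), 17 of the 20 of middle length (67.9%) and 13 of the 17 long ones (77.8%). The share of long members was thus near that of other long genes, that of short members below it and that of members of middle length above it. Members in general were shorter than marked genes, with a median body of 14000 against 20723 bases.

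**Figure D4:**
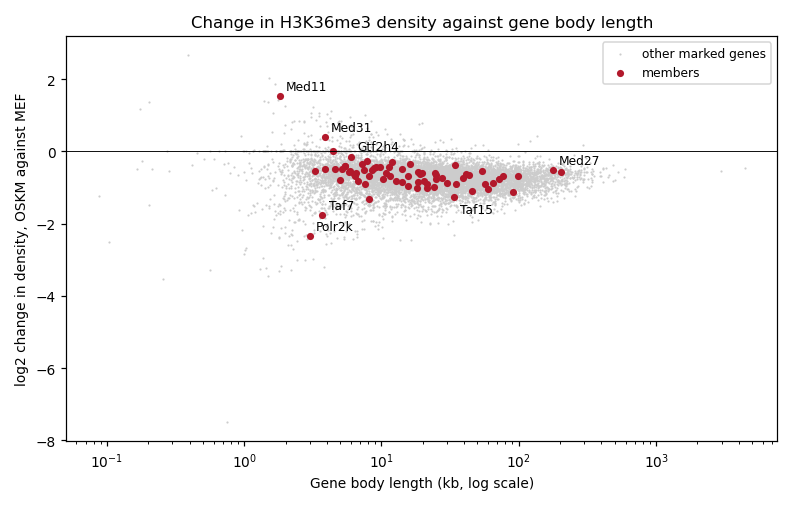
Change in density from MEF to OSKM (log2, y axis) against gene body length (kb, log scale), with the 71 marked members in red over the other marked genes in grey. Most members lie between 0 and −1 at any length, and the widest spread is among short bodies, from Med11 at 1.53 to Polr2k at −2.33.

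The position of the mark along the body followed the known 3′ bias. In MEF the last 20% of the body was covered over 75.1% on average and the first 20% over 13.5%, a ratio of 5.56 over members and 5.47 over all marked genes. For members this ratio reached 8.92 in OSKM, with 5.11 in MEF B12 and 4.73 in OSKM B12, and 7.10 in OSKM for all marked genes. The median distance from the start to the first covered base was 3086 bases in MEF and 3351 in OSKM. Over all marked genes it was 3758 and 4799.5, and genes without a peak in a library do not enter its median. Members were covered most in the last of 20 bins in MEF (79.3%), OSKM (65.0%) and OSKM B12 (79.6%), and in bin 14 (84.9%) in MEF B12, whereas over all marked genes each library was highest in the bin before it.

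**Figure D5:**
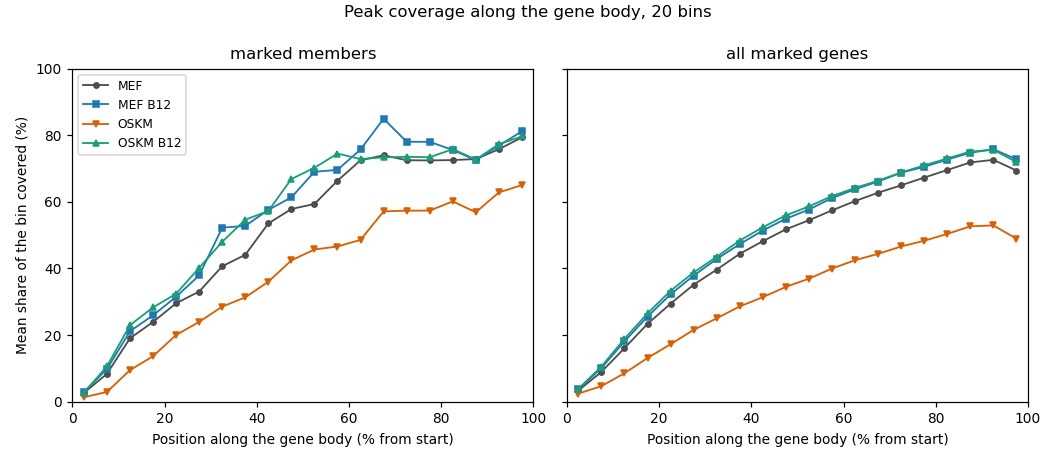
Mean share of each of 20 equal bins of the gene body that lay in peaks (%, y axis) from start to end (x axis), for the 71 marked members and for all 9619 marked genes, 1 line per library. OSKM runs below the other lines throughout, and the lines of members stay high in the last bin while those of all marked genes drop.

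Peaks often ran past the annotated end. A peak spanned the end of 53 of 71 members in MEF (63.1% of marked genes), 57 in MEF B12 (66.7%), but 39 in OSKM (41.9%) against 53 in OSKM B12 (65.1%), and where it did, it reached a median of 1499 bases beyond in MEF and 980 in OSKM. A peak over the start was listed for Polr2b alone, in OSKM (2.72% of marked genes), and for 0 members in MEF (2.32%), MEF B12 (2.46%) and OSKM B12 (2.47%). Exons were covered more than introns. In MEF 73.8% of exon bases and 45.2% of intron bases of marked members were in peaks, and in OSKM 60.3% and 30.01%. Over all marked genes these shares were 67.4% and 36.3% in MEF, and 49.1% and 21.8% in OSKM. Bases were pooled over genes, so long genes weigh most. Members with more exons had higher coverage in MEF, with a rho of 0.47 over members and 0.24 over all marked genes, again as a description across genes.

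The next comparison set OSKM B12 against OSKM, to ask how the mark differed when vitamin B12 was added during OSKM induction. It shares the OSKM library with the comparison above, so they are not independent. The density was higher in OSKM B12 for 69 of 71 marked members (98.8% of marked genes) and at least 1.5-fold higher for 63 (93.5% of marked genes). It was lower for 1 member, Med11 (0.541%), at a density of 0.0942 in both libraries, and at least 1.5-fold lower for 0 (0.229%). The covered share was higher for 69 (96.5%) and lower for 1, again Med11 (2.5%). The median log2 difference was 0.94 for members and 0.98 for all marked genes. Without the 10% filter the count was 63 of 77 (44.3% of all genes), and among the 59 members covered in each library it was 56 (96.3% of such genes). The 8 marked members short of 1.5-fold were Med7, Med11, Med28, Med31, Polr2g, Polr2k, Taf7 and Taf9.

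Among members covered over at least 25% in MEF or OSKM, the log2 difference with 0.05 added was highest for Taf15 (1.46), Gtf2h5 (1.42) and Gtf2e2 (1.29), and Gtf2a1 lay just below them (1.28). As plain ratios of density, which order genes differently, Taf15 was 3.83 times as dense in OSKM B12 as in OSKM, Gtf2h5, the smallest TFIIH subunit, 3.497 times and Gtf2e2, a TFIIE subunit, 3.19 times. Over bases covered in all libraries, each given the mean pileup of its whole peak, the ratios were 1.44, 1.496 and 1.33. The covered shares differed 3.16, 2.34 and 2.46 times. Polr2a differed little in covered share (1.06 times), with a ratio of 2.01 in density and 1.99 (1.84 to 2.14) over the shared bases, the highest of the 64 members. The lowest was that of Polr2g, a stalk subunit, at 1.01 (0.796 to 1.28), and its interval includes 1. It compares means of peaks of unlike extent, which reached 532 bases past the gene end in OSKM and 2955 in OSKM B12. Fragments on the shared bases alone were not counted. The median over members was 1.51, and over all marked genes 1.498.

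MEF B12 against MEF asked about vitamin B12 in cells without OSKM induction. The density was higher in MEF B12 for 66 of 71 marked members (90.5% of marked genes), but at least 1.5-fold higher for only 4 (4.65% of marked genes), which were Med11, Med19, Med31 and Taf9. They were also the 4 of all 77 (2.38% of all genes), and Med19 was the 1 among the 59 covered in each library (2.17%). It was at least 1.5-fold lower for 0 (0.946%), and the covered share was lower for 17 (28.3%) and higher for 54 (70.5%). The median was 0.20 on the log2 scale, and 0.21 over all marked genes. The density of these 4 genes in MEF lay below the members' mean of 0.336, with 0 for Med11 and Taf9, 0.0696 for Med31 and 0.242 for Med19. Med8, Med7, Med24, Polr2k and Taf7 were lower in MEF B12 (8.86% of marked genes), from a log2 difference of −0.04 for Med24 to −0.47 for Polr2k. Over bases called in all libraries the median ratio of the peaks' mean pileup was 1.13 for members and for all marked genes, with 1.25 (1.17 to 1.34) for Polr2a.

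OSKM B12 was also set against MEF, with libraries that both stand in the comparisons above. Its density was above that in MEF for 67 of 71 (90.9% of marked genes) and below it for 4 (8.75%), Gtf2a2, Med7, Polr2k and Taf7. The covered share was below that in MEF for 16 members (28.1%) and above it for 55 (71%). At least 1.5-fold lower were Polr2k and Taf7 (0.998% of marked genes), and at least 1.5-fold higher were 7 members, Gtf2h4, Gtf2h5, Gtf2ird2, Med11, Med31, Taf13 and Taf6l (8.76%). The median log2 difference was 0.30 over members and 0.26 over all marked genes.

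Other genes of the same machinery were listed for comparison. Of 25 autosomal partners (the Mediator kinase, TBP family, remaining TFIIH, SAGA and Pol II assembly factors) 21 were marked, 13 of these were at least 1.5-fold lower in OSKM than in MEF, and the median log2 change was −0.68, beside 66.8% and −0.70 for all marked genes. Tbp, the core of TFIID, had densities of 0.518 in MEF and 0.632 in MEF B12, and 0.297 in OSKM and 0.608 in OSKM B12. Tbp too was lowest in OSKM. The 8 subunits found by name for Pol I were all marked, with a median of −0.59 and 4 past the fold, and 9 of 11 Pol III genes were marked, with −0.64 and 5 past the fold. Of the 5 X-linked subunits, 4 were marked and all 4 were at least 1.5-fold lower in OSKM, from Med12 at −0.74 to Taf9b at −1.21. The background of marked genes covers chromosomes 1 to 19 alone, so the X-linked genes have none here.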

How the data were processed

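The members, gene groups and lists were chosen with earlier results of these data known. The labels place 8 samples in 4 conditions, each with 1 H3K36me3 library and 1 input. Alignment to mm10 used Bowtie 0.12.9, and after removal of duplicates the authors called broad peaks with MACS2 2.2.6, each library against its own input (q 0.05 and 0.1). In the deposited lists, pileup is a signal (mean fragments over a peak), fold enrichment is a ratio of pileup to local input, and significance is given as −log10 values of p and q (p-value, q-value). The start, end and length of each deposited peak are in bases.

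Covered shares, densities (pileup per 1000000 tags) and log2 changes (pseudocount 0.05) came from Python 3.11 (numpy 2.4.6, scipy 1.17.1) over GENCODE M21 bodies, and plotted with matplotlib 3.10.9. Peaks off the main chromosomes were left out. Intervals are 95% ranges for the ratio of 2 Poisson counts. The depth, 29046913 to 33399267 tags, sets the weakest peak that could be called. Called means past 1.5-fold, since no test was possible. The scripts were tested on simulated data. Named genes were those without a peak, 8 genes fixed by function, 7 paralogue pairs, the densest and least dense marked member of each group, and the 3 largest and smallest changes per comparison among members covered over at least 25%, and others named by counts were chosen after their values were seen. Alternatives were stricter, equal-number or merged peaks, other pseudocounts, scalings, bodies, bases and member sets.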

Additional observations from a re-analysis of the deposited data

Results flagged for a closer look

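Vitamin B12 went with density differences of opposite direction in MEF and OSKM for 5 of the 71 marked members (8.88% of marked genes), and this was not tested, since each condition had 1 library. Med8, a head subunit, had a log2 difference of −0.05 from MEF to MEF B12 and 0.94 from OSKM to OSKM B12, and Med24, a tail subunit, had −0.04 and 1.08. For both genes the MEF value is close to 0. Med7 had −0.37 and 0.46, from densities of 0.198 and 0.142 in the MEF libraries and 0.117 and 0.180 in the OSKM libraries. Polr2k had −0.47 and 0.26, the latter from a density of 0 in OSKM and 0.00981 in OSKM B12. Med11 ran the other way, at 0.86 in MEF, where no peak was listed without B12, while its density was 0.0942 in both OSKM libraries.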

How the results depend on the processing

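No paired analysis was possible because there was 1 library for each condition, and for the same reason no library could be left out. Of 109 alternative values 72 stayed within counting error or within 1.5 times the count, 37 moved and 0 changed direction. In the order OSKM against MEF, OSKM B12 against OSKM and MEF B12 against MEF, the median log2 changes over marked members (−0.64, 0.94 and 0.20) moved to −1.68, 2.31 and 0.15 with peaks at a −log10 q of at least 5, to −0.75, 1.05 and 0.23 with a pseudocount of 0.01, to −0.43, 0.66 and 0.15 with 0.2, to −0.61, 0.79 and 0.061 with the pileup as deposited, to −0.60, 0.84 and 0.23 with fold enrichment, and to −0.37, 0.60 and 0.17 over bases called in all 4 libraries. With Mediator, TFIID and Pol II subunits alone the first and last became −0.61 and 0.17. The ratio of mean covered share moved from 0.745 to 0.213 in the first comparison and from 1.44 to 5.48 in the second with the stricter q, to 0.803 and 1.35 with peaks at most 1 kb apart merged, and to 0.766 and 1.40 with members covered over at least 50% in 1 library. With the subunits alone it was 1.40 in the second comparison and 1.07 in the third. The count at least 1.5-fold lower in OSKM was 13 in place of 43 with the pseudocount of 0.2. The 4 members at least 1.5-fold higher in MEF B12 became 9 with the stricter q and with the pseudocount of 0.01, and 1 with the pseudocount of 0.2 and with members covered over at least 50%. They became 2 with members that had a peak in both libraries, an alternative chosen after seeing the data. The ratio of the last to the first 20% of the body in MEF (5.56) was 11.3 with the stricter q, 5.41 with merged peaks and 2.29 with 50% of the body at each end. Over all marked genes the medians of the log2 changes were −0.70, 0.98 and 0.21, and with the stricter q −1.01, 1.76 and 0.19. In both comparisons with OSKM the members therefore lay closer to 0 than marked genes in general, but farther from 0 with the stricter q. With the stricter q, genes left without a peak in both libraries count as unchanged. Members were also slightly farther from no change in the mean pileup of the peaks over bases called in all 4 libraries. There the median ratios were 0.773 against 0.781 in the first comparison and 1.51 against 1.498 in the second. With the pseudocount of 0.2 the medians of all marked genes were −0.44, 0.65 and 0.15, and 21.2% were at least 1.5-fold lower in OSKM. In the second comparison the members (0.66) were then slightly above marked genes in general. The size of the OSKM difference, and its place beside marked genes in general, therefore depend on the peak threshold and other settings, and the cause was not tested.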
